A study of Homo sapiens with 4 samples.

Results

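The 9 genes described here encode the enzymes of the urea cycle and the enzymes that release ammonia from glutamine and glutamate: CPS1, OTC, ASS1, ASL, ARG1, ARG2, NAGS, GLS2 and GLUD1. They were chosen by name, with earlier results of these data known. Their rows were found by the gene symbol in a deposited table of read counts that holds 1 row per RefSeq mRNA accession. The table held rows for 6 of the 9 genes (7 of its 14540 rows), and ARG1, GLS2 and GLUD1 were not analysed here. Where a gene had several rows, the row with the highest summed count was taken as its main row. Messenger RNA came from PLC/PRF/5, a human hepatocellular carcinoma cell line. In 2 libraries USP22 had been knocked down by lentiviral interference (shUSP22), and 2 libraries were controls, labelled NC. Cells of both groups had been kept for 48 h at 1% oxygen with 5% carbon dioxide, so both groups were hypoxic. USP22 is a ubiquitin-specific protease that removes ubiquitin from histones as a subunit of the SAGA coactivator complex. The labels do not say which stretch of USP22 the interference targeted. They also do not say whether replicates were separate cultures, so p-values measure the spread between these libraries, which may be technical.

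The urea cycle turns toxic ammonia into urea, and the whole cycle runs in hepatocytes. It starts in mitochondria, where NAGS makes N-acetylglutamate, the obligatory activator of CPS1. CPS1 joins ammonia and bicarbonate into carbamoyl phosphate, and OTC transfers that group to ornithine to give citrulline. In the cytosol ASS1 and ASL convert citrulline through argininosuccinate to arginine, and ARG1, the liver arginase, releases urea and ornithine. ARG2 is a second, mitochondrial arginase found mainly outside the liver. GLS2, the liver glutaminase, and GLUD1, glutamate dehydrogenase, supply ammonia inside mitochondria. In the liver these steps lie mostly in hepatocytes near the portal vein, while cells near the central vein capture remaining ammonia as glutamine through GLUL.

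The 3 promoters below belong to OTC, which was higher in the knockdown, and to NAGS and ARG2, which were lower. They show how different the regions in front of these genes are, and are RefSeq sequences of the assembly GRCh38.p14. Each run holds the 250 bases in front of a RefSeq start site, 5′ to 3′ on the plus strand. OTC lies at chrX:38352354-38352603, NAGS at chr17:44004372-44004621 and ARG2 at chr14:67619670-67619919. No CPS1 promoter is shown, because none of its available windows lies at the start of the CPS1 mRNA counted here. The 3 runs are therefore no comparison of genes that rose with genes that fell. Capitals mark matches on either strand to 5 motifs. The letters TATAAA stand for the box that many tissue-specific genes carry near their start, and GGGCGG is the motif bound by Sp1 and its relatives. The letters CCAAT are bound by the factor NF-Y. The cyclic AMP response element is TGACGTCA, and ACGTG is a form of the core of the hypoxia response element. Other forms of that core were not searched.
OTC: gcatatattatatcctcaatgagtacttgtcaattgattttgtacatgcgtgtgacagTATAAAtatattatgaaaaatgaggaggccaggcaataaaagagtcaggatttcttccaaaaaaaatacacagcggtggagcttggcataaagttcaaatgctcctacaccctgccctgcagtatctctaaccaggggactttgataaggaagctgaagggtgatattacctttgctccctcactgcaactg
NAGS: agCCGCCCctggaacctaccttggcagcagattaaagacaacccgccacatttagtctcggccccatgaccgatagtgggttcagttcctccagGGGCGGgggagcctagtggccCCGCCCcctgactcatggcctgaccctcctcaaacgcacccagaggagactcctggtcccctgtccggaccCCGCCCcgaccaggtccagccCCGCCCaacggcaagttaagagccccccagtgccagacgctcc
ARG2: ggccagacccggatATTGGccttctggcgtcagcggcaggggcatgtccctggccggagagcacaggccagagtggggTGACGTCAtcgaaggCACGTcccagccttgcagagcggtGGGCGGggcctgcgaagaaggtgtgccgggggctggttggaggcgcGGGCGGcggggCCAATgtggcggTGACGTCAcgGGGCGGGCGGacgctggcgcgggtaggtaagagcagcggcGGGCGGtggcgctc
The OTC run held 1 TATAAA and none of the other letters searched. This match begins 192 bases in front of the start site, so it does not lie near the start as the box described above does. TATAAA was present in 10.7% of all 35116 promoter windows of the same length. NAGS held GGGCGG at 5 places, a motif of 42.6% of the windows, and none of the other letters searched. ARG2 held TGACGTCA at 2 places, 172 and 64 bases in front of the start site, and this motif was present in 1.65% of the windows. It also held GGGCGG at 5 places, of which 2 overlap, CCAAT at 2 places and ACGTG at 1 place. CCAAT was found in 32% of all windows and ACGTG in 18.5%. TTGCNNAA, a form of the C/EBP site, was searched as well, and was in none of the 3 runs and in 9.05% of all windows. A match describes letters and does not show that a factor binds there.

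The knockdown itself was visible in the counts. USP22 had 5438 and 7683 counts in the knockdown libraries, against 46513 and 41607 in the control libraries, and fell by 2.77 on the log2 scale (SE 0.17, edgeR adjusted p = 1.36e-06). Knockdown libraries held 15027209 and 17194929 counts and control libraries 15621574 and 16536639. Of 16 hepatocyte markers 15 had a row, with a summed level of 46327 to 53504 CPM (counts scaled to a common TMM-normalized library size) in knockdown and 36221 to 37402 CPM in control libraries. APOB carried most of that gap, and without it (chosen after seeing the data) the sums were 25979 and 29697 CPM in knockdown and 25776 and 27425 CPM in control libraries, which overlap. There were 7 that rose (among them FGB, AFP and APOB), 1 that fell (AHSG) and 7 others, and with 1 library left out 5 to 8 rose and 0 to 3 fell. Markers of other cell types had rows for 12 of 18 genes, and the others were not analysed here. Their summed level was 343 and 608 CPM in knockdown and 469 and 574 CPM in control libraries, most of it LYZ. COL1A2 was at 0 in both knockdown libraries and VWF in 1 of them. Of the 9 tested 1 was higher (PECAM1) and 1 lower (KRT7), and 0 to 2 rose and 0 to 4 fell when 1 library was left out. Beside these marker counts, 8.49% of all tested transcripts were called higher and 10.2% lower in the edgeR test described below. The part of these markers in the results below was not tested.

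Of the 6 genes with a row, all 6 main rows passed the filter on low counts. CPS1 and OTC rose, NAGS and ARG2 fell, and ASS1 and ASL did not pass the test. Across all 12337 tested transcripts 8.49% were called higher and 10.2% lower (18.7% in either direction), with a call set at 0.05 after Benjamini-Hochberg adjustment of edgeR's quasi-likelihood test over all of them. The median log2 fold change of the 6 rows was 0.29 and that of all tested transcripts was 0. With so few genes, the shares are a description and no test of the set.

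**Figure D1:**
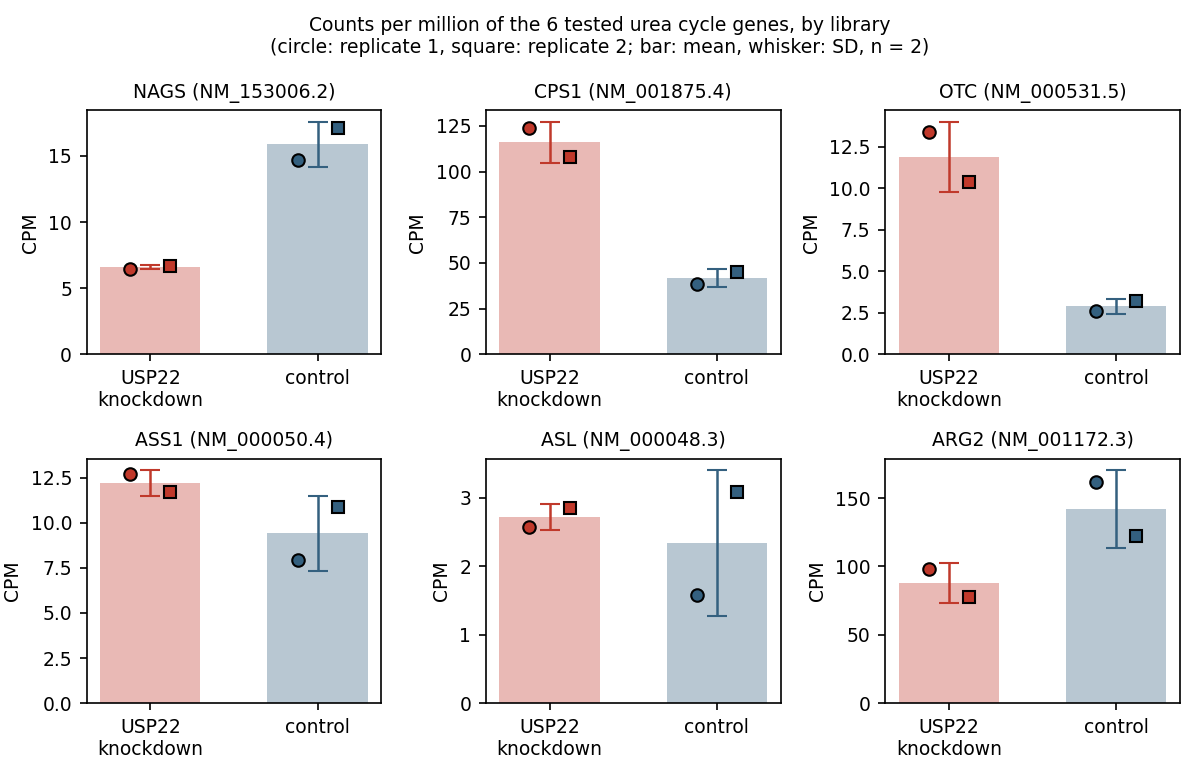
CPM of the 6 tested genes, knockdown left and control right in each panel. Points are libraries, bars are means and whiskers are SDs of 2 libraries. CPS1 and OTC stand higher in both knockdown libraries, NAGS and ARG2 lower, and the ASL groups overlap.

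CPS1, the entry enzyme of the cycle, had 1874 and 1856 counts (124 and 108 CPM) in the knockdown libraries, against 606 and 731 counts (38.3 and 45.2 CPM) in the control libraries. Both knockdown libraries lay above both control libraries, as for 29.3% of all tested transcripts. CPS1 averaged 116 ± 11.2 CPM in knockdown cells and 41.7 ± 4.91 CPM in control cells (SD, n = 2 each). Its log2 fold change of 1.47 ± 0.19 (SE), or 2.78-fold, came with adjusted p = 0.000195 and a 95% interval of 1.07 to 1.88. This row is NM_001875.4, the mRNA of the full-length enzyme. A shorter CPS1 mRNA, NM_001122634.3, had 7 and 8 counts in knockdown against 2 and 4 in control libraries. It was too low for the filter, and without a filter its log2 fold change was 1.29 ± 1.22 (adjusted p = 0.544), so no change of the short form was detectable at this depth.

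OTC, which uses the carbamoyl phosphate made by CPS1, showed the larger fold change on far fewer counts. It had 202 and 178 counts (13.4 and 10.4 CPM) in knockdown libraries, against 41 and 52 counts (2.59 and 3.22 CPM) in control libraries. The groups did not overlap, and even the lower knockdown library lay far above both control libraries. OTC averaged 11.9 ± 2.11 CPM in knockdown and 2.9 ± 0.443 CPM in control cells (SD, n = 2 each). The log2 fold change was 2.03 ± 0.34 (SE), 4.07-fold, with adjusted p = 0.00127 and a 95% interval of 1.30 to 2.76. The intervals of OTC and CPS1 overlap, and the difference between the 2 fold changes was not tested. With each of the 4 libraries left out in turn, CPS1 lay between 1.36 and 1.62 and OTC between 1.87 and 2.21 on the log2 scale, and both calls were kept.

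NAGS, which makes the activator without which CPS1 is inactive, went the other way. It had 98 and 115 counts (6.48 and 6.7 CPM) in knockdown libraries, against 233 and 277 counts (14.7 and 17.1 CPM) in control libraries. Both knockdown libraries were lower than both control libraries, as for 30.3% of all tested transcripts. NAGS averaged 6.59 ± 0.154 CPM in knockdown and 15.9 ± 1.71 CPM in control cells (SD, n = 2 each). The log2 fold change was -1.27 ± 0.28 (SE), 2.41-fold lower, with adjusted p = 0.0068 and a 95% interval of -1.88 to -0.67. It lay between -1.37 and -1.14 with 1 library left out. In a test against a minimum fold change of 1.5 it missed the threshold (adjusted p = 0.0535; the 13 alternatives gave 0.000107 to 0.0535), whereas CPS1 and OTC passed that test as well.

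Because counts of a pair of genes in the same library share its depth, their ratio does not depend on the scaling between libraries. There were 19.1 and 16.1 CPS1 counts for each NAGS count in the knockdown libraries, against 2.6 and 2.64 in the control libraries. The mean ratio was 6.73-fold higher in the knockdown. For OTC, 2.06 and 1.55 counts stood against each NAGS count in knockdown libraries and 0.176 and 0.188 in control libraries. Between the enzymes that rose the ratio moved far less, with 0.108 and 0.0959 OTC counts per CPS1 count in knockdown and 0.0677 and 0.0711 in control libraries, a 1.47-fold higher mean. A ratio of a gene that rose to one that fell combines both fold changes, so these ratios restate the counts above and add no separate evidence. With 2 libraries against 2, a two-sided exact permutation test cannot go below p = 0.333, so the ratios are given without a test.

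Neither gene of the cytosolic steps passed the test. ASS1, which condenses citrulline with aspartate, had 192 and 201 counts (12.7 and 11.7 CPM) in knockdown libraries, against 126 and 176 counts (7.96 and 10.9 CPM) in control libraries. Its knockdown libraries lay above its control libraries, but the gap between the groups was smaller than the gap between the control libraries. The log2 fold change was 0.37 ± 0.29 (SE, adjusted p = 0.416), and the 95% interval of -0.25 to 0.99 does not exclude a rise close to 2-fold. ASS1 has many processed pseudogenes in the genome, so its counts are uncertain. ASL, which splits argininosuccinate into arginine and fumarate, had 39 and 49 counts in knockdown libraries, against 25 and 50 counts in control libraries. Both knockdown libraries lay between the control libraries. The log2 fold change was 0.22 ± 0.49 (SE, adjusted p = 0.814) with a 95% interval of -0.85 to 1.28, and without control replicate 1 it turned to -0.18 (adjusted p = 0.892; 12 alternatives gave 0.451 to 1). The ASS1 count for each CPS1 count was 0.102 and 0.108 in knockdown and 0.208 and 0.241 in control libraries.

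ARG2, the mitochondrial arginase and the best counted of the 6 genes, was lower in the knockdown. It had 1487 and 1333 counts (98.3 and 77.6 CPM) in knockdown libraries, against 2573 and 1981 counts (162 and 122 CPM) in control libraries. The groups did not overlap, although the libraries within each group differed more than those of CPS1. ARG2 averaged 88.0 ± 14.6 CPM in knockdown and 142 ± 28.3 CPM in control cells (SD, n = 2 each). The log2 fold change was -0.70 ± 0.20 (SE), 1.62-fold lower, with adjusted p = 0.0256 and a 95% interval of -1.12 to -0.27. This call depended on single libraries. Leaving out control replicate 1 ended it (-0.47, adjusted p = 0.284), and so did leaving out knockdown replicate 2 (-0.53, adjusted p = 0.0701). The 13 alternatives gave adjusted p-values of 7.03e-05 to 0.486. Up to 767 bases of an ARG2 exon are shared with an exon of VTI1B on the opposite strand, and the library kit does not mark strand, so reads there cannot be told apart. VTI1B, a vesicle transport protein, had 102 and 95.4 CPM in knockdown and 65.6 and 76.4 CPM in control libraries (log2 fold change 0.47 ± 0.18, adjusted p = 0.0841), the opposite direction to ARG2. Its part in the ARG2 values was not tested.

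**Figure D2:**
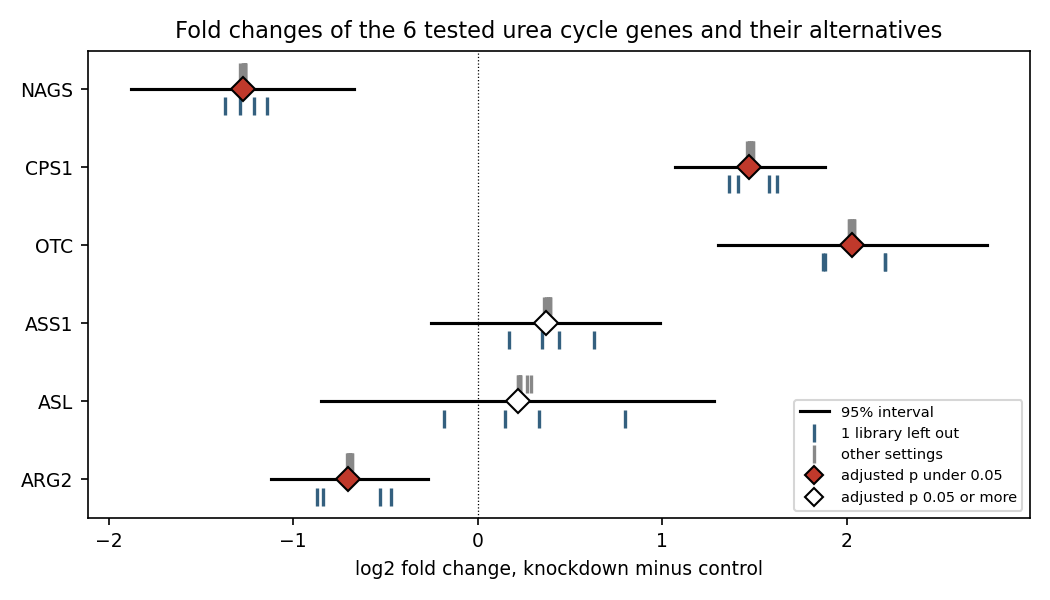
Log2 fold changes, knockdown minus control, of the 6 tested genes. Diamonds are the values reported (filled where adjusted p was under 0.05), black lines the 95% intervals, blue ticks the fits with 1 library left out and grey ticks the other settings. Every tick of NAGS, CPS1, OTC, ASS1 and ARG2 stays on its side of 0, and 1 tick of ASL crosses it.

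The authors' deposited table gives log2 fold changes of 1.49 for CPS1 (q-value 3.51e-17), 2.05 for OTC (q-value 7.05e-08), -1.25 for NAGS (q-value 7.36e-05) and -0.68 for ARG2 (q-value 0.00166). In the authors' deposited table ASS1 has 0.39 (q-value 0.377) and ASL 0.24 (q-value 0.825). There, 22.1% of the 14540 rows have a q-value under 0.05. Direction and side of the threshold are the same as in the edgeR test for all 6 genes, and the deposited q-values of the called genes are far smaller.

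**Figure D3:**
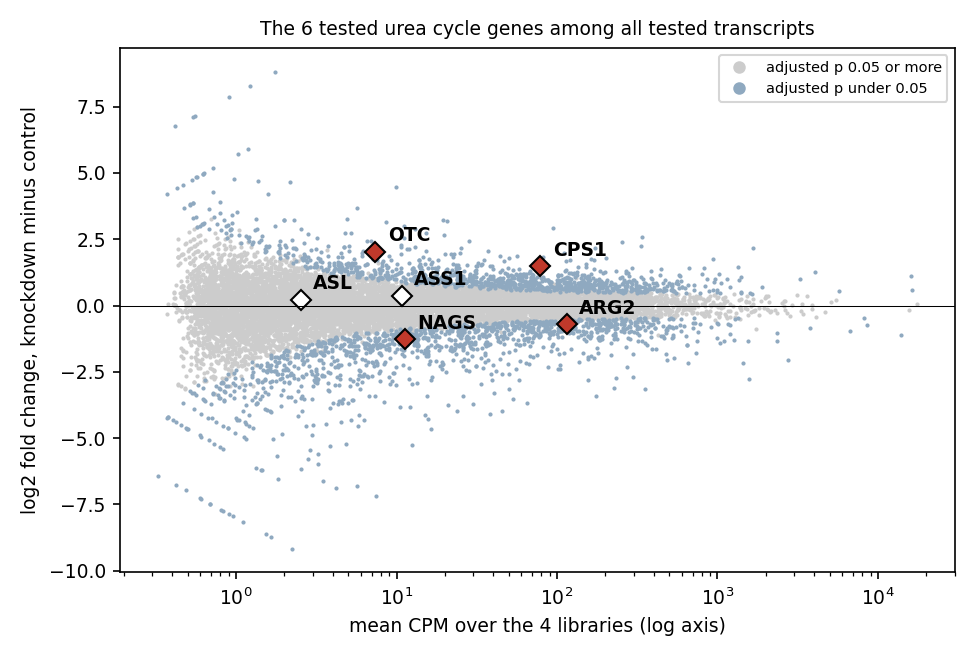
Log2 fold change, knockdown minus control, against mean CPM (log axis) for all tested transcripts, with the 6 tested genes as diamonds. CPS1 and OTC lie above 0 and NAGS and ARG2 below it, well inside the spread of the other called transcripts, and ASS1 and ASL lie within the grey band of transcripts that were not called.

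Levels can be compared between genes only per transcript length, as CPM per kb. ARG2 stood highest, with 48.1 and 38.0 CPM per kb in knockdown and 79.4 and 59.9 in control libraries. CPS1 followed in the knockdown, with 21.3 and 18.6 CPM per kb, against 6.57 and 7.77 in control libraries. ASS1 had 8.2 and 7.56 CPM per kb in knockdown and 5.14 and 7.03 in control libraries, and OTC had 8.43 and 6.54 against 1.63 and 2.03. The NAGS level was 2.97 and 3.07 CPM per kb in knockdown and 6.74 and 7.85 in control libraries, and that of ASL 1.2 and 1.33 against 0.737 and 1.44. In knockdown cells the order was ARG2, CPS1, ASS1, OTC, NAGS and ASL, where ASS1 and OTC overlapped and the other neighbours did not. In control cells it was ARG2, NAGS, CPS1, ASS1, OTC and ASL, where NAGS overlapped with CPS1 and with ASS1, CPS1 overlapped with ASS1, and the other neighbours did not. The median over 11880 tested transcripts with a known length was 3.16 CPM per kb. Rows of genes with several mRNA accessions hold few counts in this table, with a median row total of 2588 for genes with 1 accession and 118 for genes with 3 or more. RefSeq now lists 4 mRNA accessions each for CPS1 and ASL, 2 each for ASS1 and OTC and 1 each for NAGS and ARG2, and how the counting shared reads among them is not known, so the order may depend on it.

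**Figure D4:**
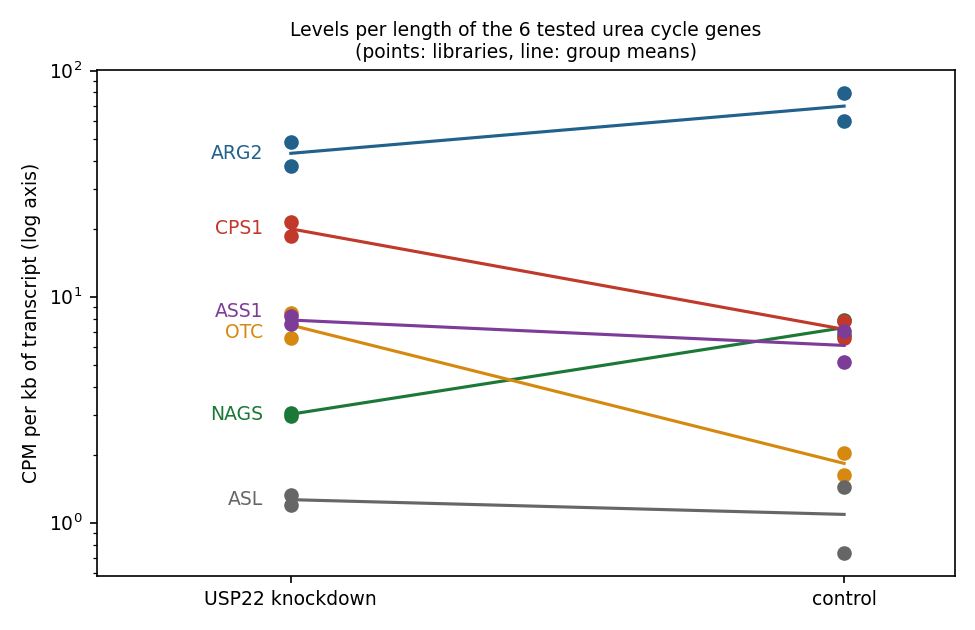
Levels of the 6 tested genes in CPM per kb of transcript (log axis), knockdown left and control right. Points are libraries and lines join the group means. CPS1 and OTC stand higher in the knockdown, NAGS and ARG2 lower, and CPS1 is well above NAGS in the knockdown while both overlap in control cells.

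Around the cycle, 6 lists of related genes were counted, each gene by its best counted row. These lists too were chosen with earlier results of these data known. Their counts stand beside shares of 8.49% called higher and 10.2% lower over all tested transcripts, and no list was tested as a set. Among 17 tested enzymes of glutamine, glutamate and ammonia, 3 were higher, 3 lower and 11 not called (median log2 fold change 0.33). GLUD2, an intronless copy of GLUD1 that encodes a second glutamate dehydrogenase, rose to 116 and 162 CPM in knockdown libraries, against 58.3 and 71.0 CPM in control libraries (log2 fold change 1.10 ± 0.20, adjusted p = 0.00245). The 2 genes are nearly identical in sequence, so the GLUD2 row may hold reads of GLUD1. PFAS and GMPS, which use the amide nitrogen of glutamine for purine synthesis, rose by 0.96 ± 0.18 (adjusted p = 0.00282) and 0.77 ± 0.16 (adjusted p = 0.00499) on the log2 scale. The 3 that fell were asparagine synthetase ASNS (-1.76 ± 0.33, adjusted p = 0.00267), GFPT2 of the hexosamine pathway (-1.39 ± 0.28, adjusted p = 0.0045) and the mitochondrial alanine aminotransferase GPT2 (-1.27 ± 0.19, adjusted p = 0.000729). GLUL, chosen after its values were seen, had only 24 and 32 counts in knockdown and 13 and 21 counts in control libraries (0.70 ± 0.63, adjusted p = 0.491). GLUL has 2 rows, and rows of genes with several mRNA accessions hold few counts here, so these counts do not show that GLUL was scarce. Over the 13 alternatives 1 to 8 of the list rose, with 1 against a minimum fold of 1.5, 5 in DESeq2 or with rows summed per gene, 6 with the 5 CPM filter or without knockdown replicate 1, and 8 with the replicate block. The number that fell was 3 to 5, with 5 under the block. GMPS lost its call without control replicate 1 (0.72).

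Of 20 tested genes for arginine, ornithine, proline and polyamines, 16 were not called, 3 were higher and 1 was lower (median log2 fold change -0.20). The share called in either direction was near the 18.7% of all tested transcripts. The alternatives gave 1 to 5 higher and 1 to 2 lower, with the fewest higher against a minimum fold of 1.5 and the most under the replicate block. PRODH, the proline dehydrogenase that feeds proline toward glutamate, fell to 2.38 and 2.21 CPM in knockdown libraries, against 14.3 and 12.4 CPM in control libraries (-2.54 ± 0.33, adjusted p = 0.00023). PRODH2, the hydroxyproline dehydrogenase of liver and kidney, rose to 162 and 197 CPM, against 86.8 and 65.5 CPM in control libraries (1.24 ± 0.19, adjusted p = 0.000796). Spermidine synthase SRM rose by 0.82 ± 0.16 (adjusted p = 0.00407). GAMT, the last enzyme of creatine synthesis, rose by 0.71 ± 0.20 (adjusted p = 0.0286), a call lost without control replicate 1 (0.66), without control replicate 2 (0.78) and without knockdown replicate 2 (0.54).

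Among 17 tested carriers of amino acids and of urea cycle intermediates, 2 were higher, 5 lower and 10 not called (median log2 fold change -0.41). SLC25A15, which brings ornithine into mitochondria for OTC, rose to 899 and 632 CPM in knockdown libraries, against 487 and 488 CPM in control libraries (0.65 ± 0.18, adjusted p = 0.022). Its call was lost without knockdown replicate 1 (0.41), control replicate 1 (0.66) or control replicate 2 (0.67). SLC7A2, a cationic amino acid transporter of liver, rose by 0.99 ± 0.27 (adjusted p = 0.0222), a call lost without control replicate 1 (0.87). In each of these fits 1 carrier of the list was called higher, and without knockdown replicate 2 there were 3. At an adjusted p under 0.01 or against a minimum fold of 1.5, edgeR called 0 higher. SLC7A1, the arginine transporter of most other tissues, chosen after its values were seen, averaged 201 ± 1.53 CPM in knockdown and 405 ± 67.2 CPM in control cells (SD, n = 2 each) and fell by 1.01 on the log2 scale (SE 0.17, edgeR adjusted p = 0.00128). Of the 5 that fell, the largest decreases were those of the glutamine transporters SLC38A3 (-2.05 ± 0.35, adjusted p = 0.00161) and SLC38A5 (-1.85 ± 0.56, adjusted p = 0.0342). SLC38A5 had 15 and 18 counts in knockdown and 35 and 84 in control libraries, and lost its call without control replicate 2 (-1.09). SLC3A2, the heavy chain of several amino acid exchangers, fell by 1.36 on the log2 scale (SE 0.24, adjusted p = 0.00199).

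Genes that hepatocytes near the portal vein express most, with the urea cycle genes left out, were higher in 5 cases, lower in 0 and not called in the other 5 of 10 tested (median log2 fold change 0.87). SLC7A2, given above, belongs to this list too. Beside the 0, edgeR had 1 lower at an unadjusted p under 0.05, and DESeq2 and limma-voom had 0 lower. Without knockdown replicate 2, or with the replicate block, edgeR called 1 lower. The number higher was 3 at an adjusted p under 0.01 or against a minimum fold of 1.5, and 3 to 5 over the 13 alternatives. Serine dehydratase SDS rose to 369 and 481 CPM in knockdown libraries, against 103 and 60.0 CPM in control libraries (2.38 ± 0.24, adjusted p = 3.8e-05). TDO2, which opens the ring of tryptophan, rose to 15.3 and 19.4 CPM, against 3.85 and 3.77 CPM in control libraries (2.19 ± 0.30, adjusted p = 0.000329). Tyrosine aminotransferase TAT rose to 38.7 and 34.1 CPM, against 8.52 and 10.4 CPM in control libraries (1.94 ± 0.24, adjusted p = 0.000174). Of 16 genes of cells near the central vein 6 had a row, 5 of them were tested, and 0 rose and 0 fell. At the shares over all tested transcripts few calls are likely among 5 genes, so 0 calls do not show that these genes stayed unchanged. EdgeR had 0 of them at an unadjusted p under 0.05 in either direction, and DESeq2 and limma-voom had 0 calls. CYP2E1 and AXIN2 were the best counted, with log2 fold changes of 0.01 ± 0.33 (adjusted p = 0.987) and -0.41 ± 0.27 (adjusted p = 0.33). The difference between the 2 lists was not tested.

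**Figure D5:**
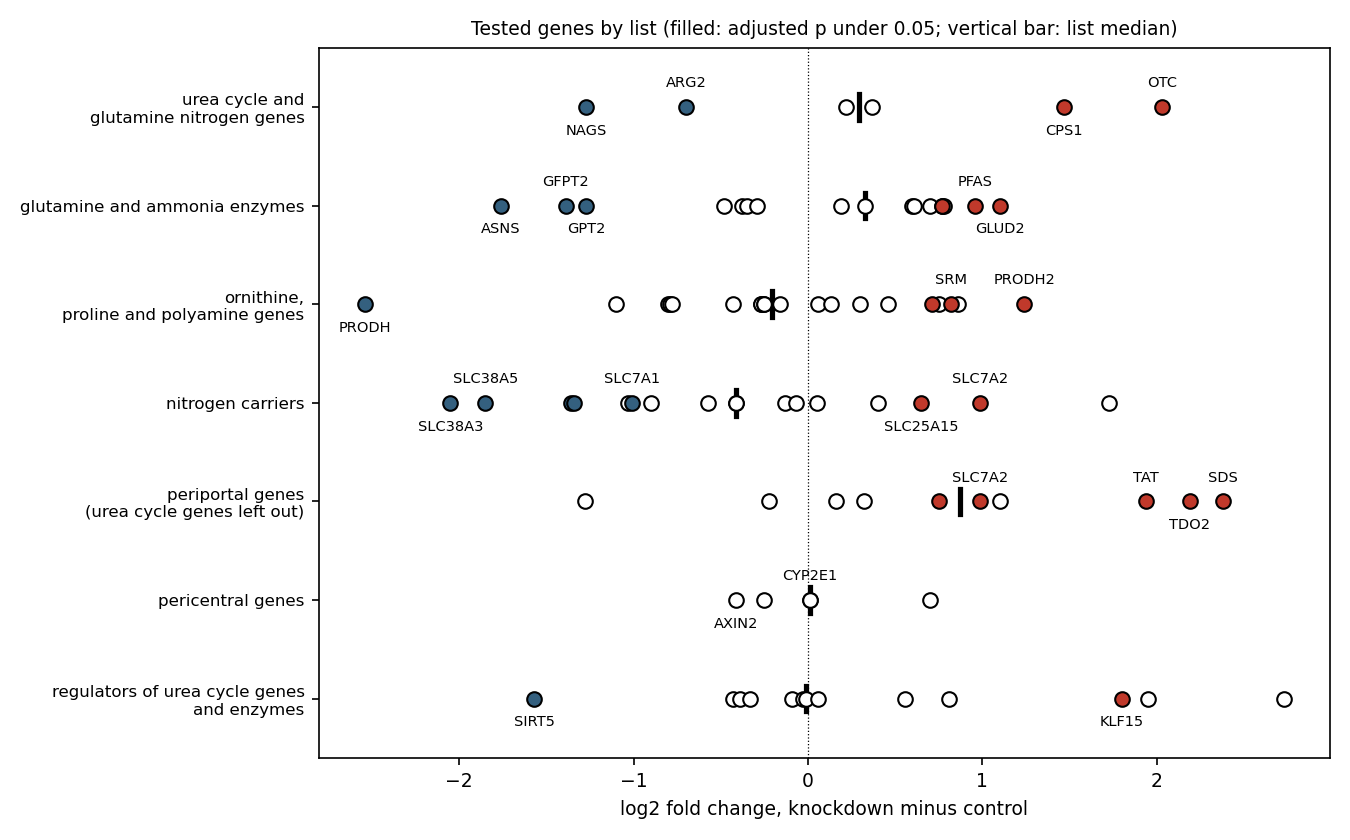
Log2 fold changes, knockdown minus control, of the tested genes of each list, 1 point per gene. Filled points had an adjusted p under 0.05 (red higher, blue lower), and vertical bars are list medians. CPS1 and OTC lie at the upper end with SDS, TDO2 and TAT, and NAGS and ARG2 lie among the genes that fell.

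Among 13 tested genes that act on urea cycle genes or enzymes, 11 were not called, 1 was higher and 1 lower (median log2 fold change -0.01). These counts are near the shares of all tested transcripts, 8.49% higher and 10.2% lower. KLF15, a transcription factor that drives amino acid breakdown and urea cycle genes in mouse liver, rose to 62.9 and 92.5 CPM in knockdown libraries, against 27.7 and 17.1 CPM in control libraries (1.80 ± 0.26, adjusted p = 0.000506). The mitochondrial deacylase SIRT5, which activates CPS1 in mouse, had 26 and 32 counts in knockdown and 107 and 63 counts in control libraries. It fell by 1.57 on the log2 scale (SE 0.44, adjusted p = 0.0252), a call lost without control replicate 1 (-1.11), where 0 of the list fell. The number that rose was 1 to 3 over the 13 alternatives, and the number that fell was 0 to 1. In DESeq2, in limma-voom, with the 5 CPM filter or with rows summed per gene 2 rose. With the replicate block 3 rose.

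Over the 4 libraries, the transcripts whose profile was most like that of each called gene were found by the Euclidean distance of log2 CPM relative to the control mean, among 5643 rows with a mean of at least 10 CPM. For CPS1 they were ABCA1 (distance 0.127), NUGGC (0.136) and LRRC4B (0.147). For OTC they were BCAS1 (0.080), TAT (0.130) and ARSB (0.163), so a periportal gene stood among the nearest. NAGS was nearest to TMEM45A (0.034), LZTS3 (0.054) and JAG1 (0.062), and ARG2 to C22orf39 (0.070), RAB33B (0.080) and MOSPD2 (0.083). With 4 libraries in 2 groups, such nearness rests mainly on a like fold change and is given as a description.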

How the data were processed

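RNA of 2 USP22 knockdown and 2 control samples was analysed. The authors deposited raw counts per RefSeq mRNA accession for each library, beside a log2 fold change with its p-value and q-value per row. Per the submitters' processing notes bcl2fastq, HISAT2 2.1.0, HTSeq and the build hg19 were used, with no roles given. How shared reads were counted is not given in these sources. Per the labels' protocols, mRNA libraries were made with NEBNext Ultra RNA, a kit that does not mark strand.

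Samples were grouped by title. Rows were kept by edgeR's filterByExpr (minimum count 10), which left 12337 and removed 2203. TMM factors were 0.979 to 1.015. The contrast of knockdown and control was fitted on all rows in edgeR 4.0.16 (glmQLFit, glmQLFTest, R 4.3.3), with no covariate and Benjamini-Hochberg adjustment at 0.05. The common dispersion gave a biological variation of 22.1% (prior degrees of freedom 11.2). An SE is the log2 fold change divided by the square root of F, and 95% intervals use 13.2 degrees of freedom. Alternatives used DESeq2 1.42.0 and limma 3.58.1, other filters, thresholds and normalization, summed rows, the replicate block and leaving out each library. The test was checked on simulated counts.

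Transcript lengths came from GENCODE v29 (95.9% of rows) and promoters from RefSeq GRCh38.p14. That is not the authors' build, so its coordinates are given for the promoter sequences alone. All 9 genes and lists were chosen with earlier results of these data known. The rule named all 9 genes, USP22 and, per list, up to 3 called genes in each direction, or the 2 with the highest mean where none was called. It further named the 3 nearest profiles. Exceptions are marked. VTI1B was named for its overlap with ARG2.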

Additional observations from a re-analysis of the deposited data

How the results depend on the processing

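Over 13 alternatives per gene (12 for ASL, which missed the 5 CPM filter), CPS1 and OTC kept their direction and call in every one. NAGS kept its direction, and lost its call against a minimum fold of 1.5. ARG2 kept its direction, and lost its call at an adjusted p under 0.01, against a minimum fold of 1.5, and without control replicate 1 or knockdown replicate 2. The number of urea cycle genes that fell was 1 at an adjusted p under 0.01, 0 against a minimum fold of 1.5 and 1 to 2 with 1 library left out, while 2 rose throughout. Transcripts called higher numbered 433 and lower 686 at an adjusted p under 0.01, and 254 and 583 against a minimum fold of 1.5. With 1 library left out, 685 to 1340 were higher and 1020 to 1297 lower. CYP2E1 turned to -0.00017 with the 5 CPM filter, and with 1 library left out lay between -0.22 and 0.32. The lowest and highest ASL values with 1 library left out were -0.18 and 0.80.

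With the replicate number as a block, 1672 transcripts were called higher and 1859 lower, and no call of the 6 genes changed. The numbers come from titles, and deviations of same-numbered libraries correlated at 0.112, over only 2 pairs. No label says what a number marks, so whether the numbers pair the samples is not known. Fits with the block or without a library have few degrees of freedom, and a lone library is assumed to vary like the other group.

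The alternatives for other genes and lists were added after seeing the data. Of their 414 values, 377 kept their direction and side of the threshold, 33 lost a call, 1 gained one and 3 reversed, all CYP2E1. Low counts of OTC, ASS1, NAGS and ASL limit their precision.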
